A study of Mus musculus with 4 samples.

Results

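NRF2 antioxidant genes were examined in the lungs of mice with metastases of triple-negative breast cancer (TNBC), as a set of 10 of the 56748 genes in the deposited count table. The members were chosen by name: the transcription factor NRF2 (Nfe2l2), its inhibitor Keap1, and the antioxidant genes Nqo1, Gclc, Gclm, Txnrd1, Srxn1, Prdx1, Gsr and Sod2. All 10 were found in the table under these symbols, and all 10 passed the filter on low counts. Female BALB/cJ mice aged 7 weeks had been injected through the tail vein with 2000000 4T1-FLuc cells, a mouse TNBC line that carries firefly luciferase. The 2 groups, of 2 samples each, were compared, so both groups carried the same tumor line.

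The saline group received the vehicle, called PBS control in the labels. The ADC/cmLumiOpto group received an antibody-drug conjugate (ADC) that couples an antibody to CD276 with the microtubule poison DM1, together with cmLumiOpto, a gene therapy in which a luminescent protein drives a light-gated channel in the mitochondria of cancer cells after the substrate ViviRen is given. Because both agents were given together, the contribution of each cannot be told apart. The labels give the treatment as cmLumi-Olap & CD276-DM1 at 16 mg/kg. In the methods of the study the ADC was dosed at 8 mg/kg and ViviRen at 2 mg/kg. Olap is not explained in the methods, and whether it names a further agent is not known here. By the labels the material was tumor cells from lungs harvested at 3 weeks, whereas the methods describe whole dissociated lung tissue. The methods also give 4 samples per group, whereas the deposited count table holds 2 per group, and all of these were used. The treatment acts on cancer mitochondria, and the comparison addresses whether genes of the oxidative stress response differed in their transcript levels between treated and control lungs.

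NRF2 is a transcription factor that is held in the cytoplasm and marked for degradation by KEAP1, an adaptor of a CUL3 ubiquitin ligase whose cysteines are modified by oxidants and electrophiles. Once released, NRF2 pairs with small MAF proteins and binds antioxidant response elements in the promoters and enhancers of genes for glutathione synthesis, thioredoxin recycling and quinone detoxification. Because NRF2 is controlled mainly through protein stability, the level of its own transcript is no measure of its activity. In the lung the pathway is known for protecting the airway epithelium against inhaled oxidants, and many carcinomas keep it switched on.

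The antioxidant response element has the core TGACNNNGC, and it was searched in the promoters because binding of NRF2 there is what the target genes share. Promoter sequences, from 250 bases before to 50 bases after the start, were taken from RefSeq on build GRCm38.p6 and matched 8 of the 10 members by symbol, Gclc and Gsr being without an entry. The core was found, on either strand, in 5 of these 8 members and in 3781 of the 27025 genes with a promoter in the table (14.0%). The matches are shown on the strand that carries them, 5′ to 3′, with the 9 bases of the core in capitals and 10 bases to each side.
Nfe2l2: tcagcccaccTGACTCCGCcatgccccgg
Gclm: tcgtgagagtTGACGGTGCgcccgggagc
Prdx1: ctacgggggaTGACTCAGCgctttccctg
Txnrd1: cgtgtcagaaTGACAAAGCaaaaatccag
Srxn1: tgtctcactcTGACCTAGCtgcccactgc
In GRCm38.p6 these lie on the minus strand at chr2:75704885-75704913 for Nfe2l2, chr3:122245413-122245441 for Gclm, chr4:116685456-116685484 for Prdx1, chr10:82859104-82859132 for Txnrd1 and chr2:152105542-152105570 for Srxn1. The match in Prdx1 reads TGACTCAGC, the form that also holds the binding sequence of AP-1, and it was the only member among the 136 genes (0.503%) with these letters. A second spelling, TGAGNNNGC, which does not match the core, was added after the promoters had been read. It was found in 2 of the 8 members, Srxn1 and Prdx1, and in 5364 genes (19.8%). On the minus strand it read TGAGTCGGC in Srxn1 at chr2:152105356-152105384 and TGAGAACGC in Prdx1 at chr4:116685604-116685632. The Srxn1 promoter also holds it close to the start, at chr2:152105469-152105497 on the plus strand. That match holds TGAGTCA, which is the AP-1 sequence read on the other strand.
Srxn1, second spelling: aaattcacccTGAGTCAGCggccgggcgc
Such matches describe the letters in these windows and are not measured binding. No match to TGACNNNGC in Nqo1, Keap1 or Sod2 says only that the letters are not in this window.

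Total counts lay between 15263375 and 19675436 per sample, and a floor of 3 counts, for counting error only, was equal to 0.152 to 0.197 CPM, the count divided by library size in megareads. The members were well covered, with between 398 and 15454 counts in each sample, so that counting error was at most 5.01% of a value and the spread between samples limited the comparisons. Levels are given in CPM on library sizes scaled by TMM, and log2 fold changes are ADC/cmLumiOpto over saline. Saline replicate 2 stood apart in its cell type markers, with the lowest sum in 11 of 13 marker lists. The fold change of each member is therefore also given without it. Over all genes tested, log2 CPM correlated at 0.973 in the saline pair and at 0.970 in the treated pair. Without saline replicate 1 instead, the median log2 fold change of the members was -0.64. In the edgeR quasi-likelihood test with Benjamini-Hochberg adjustment over the 15320 genes tested, 0 of the 10 members and 0 genes in all (0.0%) had an adjusted p under 0.05. At an unadjusted p under 0.05, 4 members were lower in the treated samples (Nqo1, Txnrd1, Srxn1 and Gsr) and 0 were higher, beside 12.2% of all genes tested lower and 11.0% higher. By rank alone, 5 of the 10 members had each treated value under each saline value, beside 28.8% of all genes tested, and 1 had each treated value above, beside 28.1%. The median log2 fold change of the members was -0.37, beside 0.028 for all genes tested.

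Nfe2l2 (ENSMUSG00000015839), the gene of NRF2 itself, was measured at 110 and 95.8 CPM in saline replicates 1 and 2 and at 116 CPM in each of the ADC/cmLumiOpto samples. Both treated samples lay above both saline samples, and Nfe2l2 was the single member with this order. The difference was small, with a log2 fold change of 0.17 ± 0.16 (SE) and an adjusted p of 0.560 by the edgeR quasi-likelihood test, and without saline replicate 2 it was 0.076 ± 0.27. Keap1 (ENSMUSG00000003308), which targets NRF2 for degradation, was measured at 111 and 92.9 CPM in the saline samples and at 85.4 and 81.4 CPM in the treated samples. Both treated samples were lower, and the log2 fold change was -0.29 ± 0.17 with an adjusted p of 0.345 in the same test. Without saline replicate 2 it was -0.40 ± 0.26. The transcripts of NRF2 and of its inhibitor were thus ordered in opposite directions with small differences, and neither passed the test.

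Nqo1 (ENSMUSG00000003849) encodes a quinone reductase and is a classical readout of NRF2. It was counted 398 and 1697 times in saline replicates 1 and 2 and 423 and 449 times in ADC/cmLumiOpto replicates 1 and 2, or 24.9, 114, 24.0 and 21.9 CPM. Saline replicate 2 thus held 4.60 times as much Nqo1 as saline replicate 1, and the other 3 samples lay within a narrow range. The group means were 69.6 ± 63.3 CPM (SD, n = 2) in saline and 22.9 ± 1.47 CPM (SD, n = 2) in treated samples, so the SD of saline was nearly as large as its mean. The log2 fold change was -1.60 ± 0.62 with an unadjusted p of 0.0390 and an adjusted p of 0.195 in the edgeR quasi-likelihood test, and without saline replicate 2 it was -0.11 ± 0.28 with an adjusted p of 0.902. Without saline replicate 1 it was -2.33 with an adjusted p of 0.00644, so the size of this difference was set by which saline sample was kept.

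The glutathione genes had the same order in the saline pair. Gclc (ENSMUSG00000032350), the catalytic subunit of glutamate-cysteine ligase, which makes the first step of glutathione synthesis, was measured at 33.1 and 51.3 CPM in saline and at 34.2 and 37.2 CPM in the treated samples. The treated values lay between the saline values. The log2 fold change of -0.24 ± 0.24 became 0.11 ± 0.26 without saline replicate 2 and -0.54 without saline replicate 1. Gclm (ENSMUSG00000028124), the modifier subunit of the same enzyme, was measured at 47.0 and 74.8 CPM in saline and at 39.6 and 49.8 CPM in the treated samples, again with overlapping groups. Its log2 fold change was -0.44 ± 0.26, with -0.070 ± 0.26 without saline replicate 2 and -0.75 without saline replicate 1. Gsr (ENSMUSG00000031584), the reductase that regenerates glutathione, was measured at 165 and 242 CPM in saline and at 115 and 126 CPM in the treated samples. Here the groups did not overlap, and the treated values were the lower. The log2 fold change of Gsr was -0.76 ± 0.22. Its unadjusted p was 0.0120 and its adjusted p 0.136 in the edgeR quasi-likelihood test. The log2 fold change was -0.45 ± 0.27 without saline replicate 2 and -1.02 ± 0.27 without saline replicate 1.

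In the thioredoxin and peroxiredoxin branch, Txnrd1 (ENSMUSG00000020250), the cytosolic thioredoxin reductase, was counted 3639 and 5614 times in saline and 2915 and 3583 times in the treated samples. On the CPM scale these were 227 and 378 against 165 and 175, and the groups did not overlap. The log2 fold change of Txnrd1 was -0.83 ± 0.25. Its unadjusted p was 0.0150 and its adjusted p 0.143 in the edgeR quasi-likelihood test. The log2 fold change was -0.42 ± 0.27 without saline replicate 2 and -1.17 ± 0.26 without saline replicate 1. Srxn1 (ENSMUSG00000032802), which reduces over-oxidised peroxiredoxins, was measured at 55.3 and 121 CPM in saline and at 46.8 and 48.1 CPM in the treated samples. Its log2 fold change was -0.89 ± 0.35, with an unadjusted p of 0.0398 and an adjusted p of 0.196 in the same test. The log2 fold change of Srxn1 was -0.22 ± 0.24 without saline replicate 2 and -1.37 ± 0.25 without saline replicate 1. As for Nqo1, saline replicate 1 lay much nearer to the treated samples than to the other saline sample. Prdx1 (ENSMUSG00000028691), an abundant peroxiredoxin that removes peroxide, had the reverse pattern, with 535 and 566 CPM in saline and 876 and 562 CPM in the treated samples. The spread of Prdx1 lay in the treated pair, the groups overlapped, and the log2 fold change was 0.38 ± 0.23 with an adjusted p of 0.359 in the same test. The log2 fold change of Prdx1 was 0.43 without saline replicate 2, 0.032 without ADC/cmLumiOpto replicate 1 and 0.66 without ADC/cmLumiOpto replicate 2, the last with an adjusted p of 0.104 in the same test.

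Sod2 (ENSMUSG00000006818), the manganese superoxide dismutase of the mitochondrial matrix, is also driven by NF-κB and is less tied to NRF2 than the other enzymes. It was measured at 79.9 and 64.0 CPM in saline and at 80.1 and 72.7 CPM in the treated samples. The groups overlapped, and the log2 fold change was 0.087 ± 0.18 with an adjusted p of 0.804 in the edgeR quasi-likelihood test and -0.061 ± 0.26 without saline replicate 2. The group means of Sod2 thus differed less than the 2 saline samples did. What the light-gated channel did to mitochondria in these lungs was not tested here. In cultured TNBC cells the paper reports lower oxygen consumption after cmLumiOpto, alone and with the ADC.

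**Figure D1:**
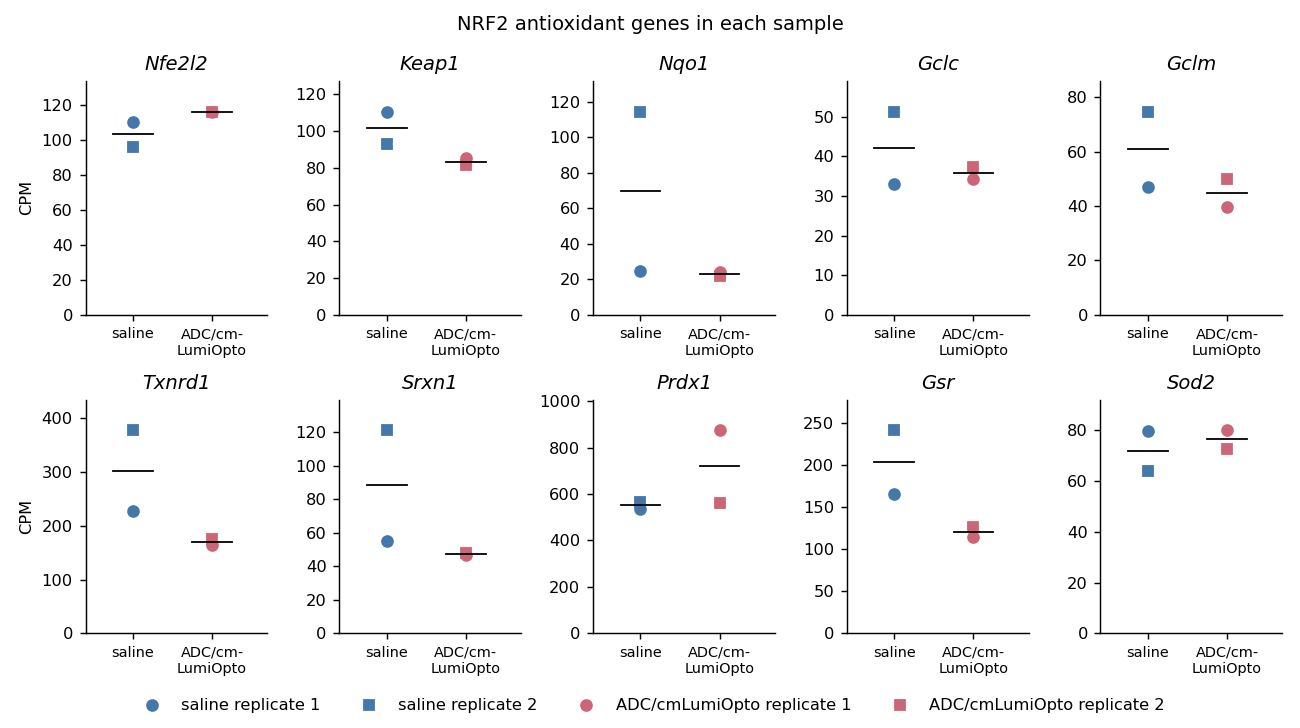
Level of each of the 10 NRF2 antioxidant genes in CPM (vertical axis, from 0) in the 2 saline and 2 ADC/cmLumiOpto samples, with a black line at the mean of each group. Nqo1, Srxn1, Txnrd1, Gclm, Gclc and Gsr were highest in saline replicate 2, at 114 CPM for Nqo1 beside 21.9 to 24.9 CPM in the other 3 samples.

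**Figure D2:**
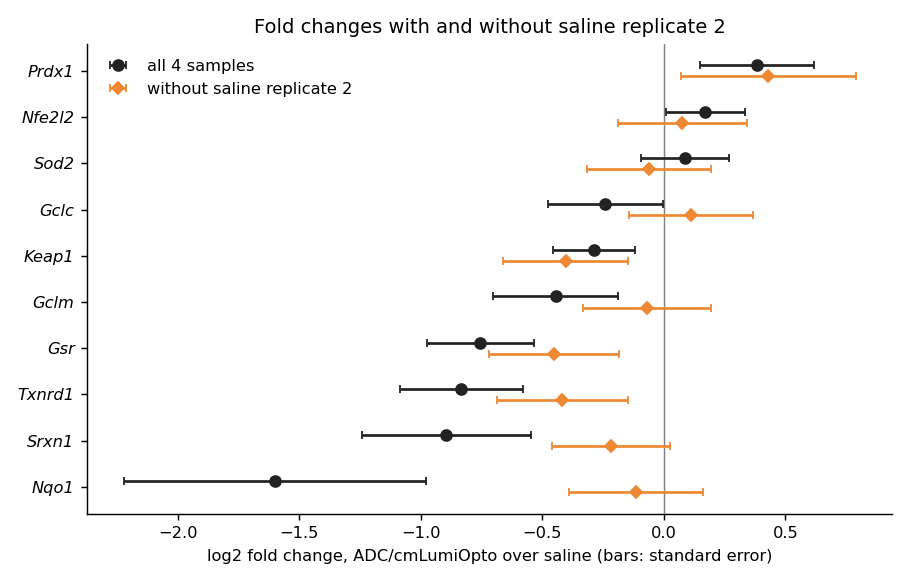
Log2 fold change of each gene, ADC/cmLumiOpto over saline, with its standard error, from all 4 samples (black) and without saline replicate 2 (orange). Nqo1 went from -1.60 to -0.11, Srxn1 from -0.89 to -0.22, Gsr from -0.76 to -0.45 and Txnrd1 from -0.83 to -0.42.

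The difference between the samples of a group was compared with that of all genes tested. The ratio of saline replicate 2 to saline replicate 1 was 4.60 for Nqo1, 2.19 for Srxn1, 1.66 for Txnrd1, 1.59 for Gclm, 1.55 for Gclc and 1.46 for Gsr. Of the 15320 genes tested, 67 (0.437%) had a ratio at or above that of Nqo1 and 321 one at or above that of Srxn1, whereas for the other 4 the share was between 5.07% and 8.11%. The remaining members had ratios of 1.06 for Prdx1, 0.870 for Nfe2l2, 0.840 for Keap1 and 0.801 for Sod2. In the treated pair the ratios of replicate 2 to replicate 1 lay between 0.642 for Prdx1, which differed more here than in the saline pair, and 1.26 for Gclm, all inside the range from the 5th to the 95th percentile of all genes. In all, 6 of the 10 members were highest in saline replicate 2, beside 27.9% of all genes tested. These 6 were the glutathione, thioredoxin reductase, sulfiredoxin and quinone reductase genes and did not include Nfe2l2 or Keap1. The order was not particular to the members, since 7 of 10 other regulators and partners of NRF2 were also highest in that sample. The same held for 9 of 24 other NRF2 target genes, 1 of 25 other antioxidant enzymes and 1 of 8 oxidases. Without saline replicate 2, 3 members were higher and 7 lower with a median of -0.093, and 0 members had an unadjusted p under 0.05 in the lower direction, beside 5.09% of all genes tested.

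**Figure D3:**
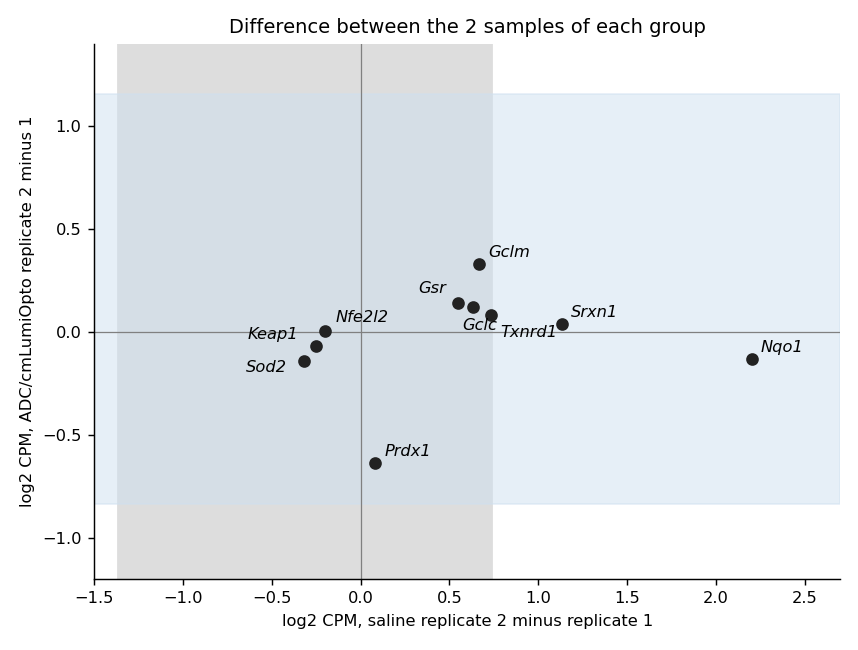
Difference between the samples of a group for each of the 10 genes on the log2 CPM scale, with saline replicate 2 minus replicate 1 on the horizontal axis and ADC/cmLumiOpto replicate 2 minus replicate 1 on the vertical axis. The grey band (saline, -1.37 to 0.74) and the blue band (ADC/cmLumiOpto, -0.84 to 1.16) run from the 5th to the 95th percentile of the 15320 genes tested, and Nqo1 at 2.20 and Srxn1 at 1.13 lay to the right of the grey band.

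The markers of several cell types also differed between the samples. Summed CPM of the alveolar type 2 markers (Sftpc, Sftpb and others) was 1567 and 331 in saline and 5669 and 4873 in the treated samples, and that of the club cell markers (Scgb1a1 and others) was 1148 and 81.4 in saline and 6217 and 2969 in the treated samples. Lung epithelium was thus lowest in saline replicate 2, the sample with the most Nqo1, and highest in the treated samples, and lung transcripts were found in every sample although the labels describe tumor cells. The sum of the general leukocyte markers was 624 and 405 in saline and 759 and 997 in the treated samples, and that of the neutrophil markers reached 8047 in ADC/cmLumiOpto replicate 2 beside 534 to 1159 in the other samples. The carcinoma and general epithelial markers (Epcam, Krt8, Krt18 and others) summed to 3001 and 3353 in saline and 2955 and 2873 in the treated samples. Krt8, Krt18 and Krt19 were highest in saline replicate 2, whereas the other 4 of the 7 (Epcam, Cdh1, Krt7 and Krt14) were lower there than in saline replicate 1. This list covers epithelium in general and does not separate tumor cells from lung epithelium, so the tumor content of the samples was not measured by it. By histology, the paper describes extensive nodules in saline lungs and a near-normal appearance with rare small nodules after the combination. Fibroblast markers were higher in saline, at 5151 and 3544 beside 1767 and 1459. Endothelial markers summed to between 396 and 734 and macrophage markers to between 1584 and 2221, each lowest in saline replicate 2. Alveolar type 1, ciliated, T cell, B cell and erythroid markers were each lowest in saline replicate 2, with sums of 87.8, 12.7, 15.3, 1.28 and 352 there. Apart from 2 B cell markers, no marker was at 0 in any sample. The share of counts from mitochondrial genes was 1.13% and 1.17% in saline and 2.09% and 1.84% in the treated samples. In these bulk samples, fewer cells of a type and less RNA per cell cannot be told apart, and the part of the cell types or of the mitochondrial share in the levels of the NRF2 genes was not tested.

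**Figure D4:**
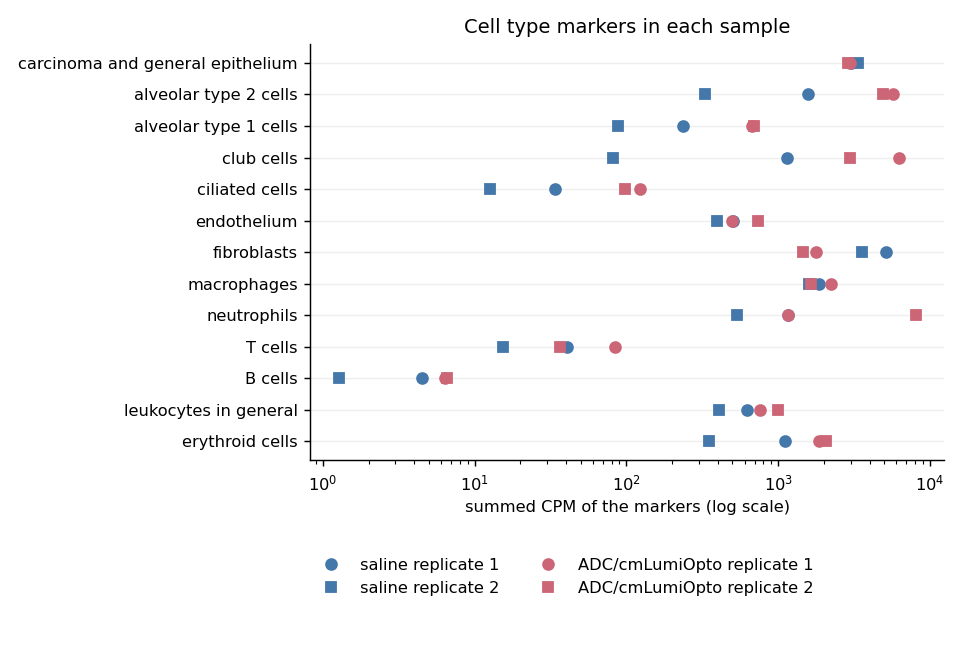
Summed CPM of the markers of 13 cell types (horizontal axis, log scale) in each of the 4 samples. Saline replicate 2 had the lowest sum in 11 of the 13 lists, among them alveolar type 2 cells at 331 beside 1567 to 5669 in the other samples.

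Other tests were run on the same counts. DESeq2 with Benjamini-Hochberg adjustment called 2 members lower, Gsr and Txnrd1, each with an adjusted p of 0.0340, beside 4.94% of all genes lower. The edgeR exact test called 0 members lower, beside 3.68%. Neither test called a member higher, beside 3.75% of all genes higher with DESeq2 and 3.96% with the exact test. The edgeR quasi-likelihood test without a filter on low counts called 4 members lower, beside 4.05% of the 25563 genes it tested. These were Nqo1 (adjusted p = 1.56e-10), Srxn1 (adjusted p = 0.00102), Txnrd1 (adjusted p = 0.00118) and Gsr (adjusted p = 0.00539). The same test called 2259 genes in all without the filter and 0 with it, so these calls depended on the filter. Over all alternatives the adjusted p reached 0.902 for Nqo1, 0.759 for Srxn1, 0.600 for Txnrd1 and 0.573 for Gsr, in each case without saline replicate 2. With 2 samples against 2, an exact two-sided permutation test cannot go below 0.333.

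Levels were compared between the members only per kilobase of the listed gene length, on the RPKM scale (CPM over length). Prdx1 was highest, with a mean of 209 over the 4 samples and a range of 176 to 288, and Gsr was next with a mean of 58.9 and a range of 41.7 to 87.9. Txnrd1 (33.4), Nqo1 (29.8), Nfe2l2 (28.8), Srxn1 (24.1) and Keap1 (19.7) followed with ranges that overlapped from one to the next. Gclc (10.3), Gclm (8.39) and Sod2 (7.41) were lowest, with ranges that overlapped among neighbours and a gap between Keap1, at 17.4 or more, and Gclc, at 13.6 or less. Nqo1 ranked 3 in saline replicate 2 and 7 in each of the other samples, the largest move of rank among the members. The order depends on the listed gene lengths, which count every annotated exon, and Sod2 was listed with 10008 bases.

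In the table, which the submitters' processing notes place on build mm39, Nfe2l2 was listed at chr2:75505857-75534985 and Srxn1 at chr2:151947436-151953296, on the minus and the plus strand. Gclm was listed at chr3:122039206-122064381 and Prdx1 at chr4:116542741-116558019, both on the plus strand. Gsr was listed at chr8:34142551-34188191 on the plus strand and Nqo1 at chr8:108114857-108129838 on the minus strand. Keap1 was listed at chr9:21141026-21150657 on the minus strand and Gclc at chr9:77661817-77701767 on the plus strand. Txnrd1 was listed at chr10:82669785-82733546 and Sod2 at chr17:13225733-13258950, both on the plus strand. These spans lay on the same chromosome as the GRCm38 genes for all 10 members and overlapped the GRCm38 span for 0 of them, so they are not on the scale of the promoter coordinates. Genes that overlap a member were listed with at most 58 counts in any sample, the highest being a small nucleolar RNA within Gsr, and since strand was not stated in the sources used here, reads shared with such genes cannot be told apart.

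The regulators and partners of NRF2 were read from the same fit. Of 10 such genes, 2 were higher and 8 lower in the treated samples with a median log2 fold change of -0.27, and 0 passed the adjusted threshold. At an unadjusted p under 0.05, 1 was higher and 2 were lower, near the 11.0% and 12.2% of all genes tested. Cul3, the scaffold of the ubiquitin ligase that KEAP1 serves, was measured at 154 and 198 CPM in saline and at 118 and 129 CPM in the treated samples (log2 fold change -0.51 ± 0.19, and -0.32 without saline replicate 2). Its RING partner Rbx1 had the opposite order, with 67.4 and 84.6 CPM in saline and 118 and 100 CPM in the treated samples (0.52 ± 0.19). Gsk3b, a kinase that marks NRF2 for degradation apart from KEAP1, was measured at 108 and 121 CPM in saline and at 52.9 and 74.5 CPM in the treated samples (-0.85 ± 0.21). The adjusted p of Gsk3b was 0.123 in the edgeR quasi-likelihood test, and without saline replicate 2 its log2 fold change was -0.76. Bach1, a repressor at antioxidant response elements, overlapped between the groups (-0.32 ± 0.23), and lay between -0.62 without ADC/cmLumiOpto replicate 2 and -0.069 without ADC/cmLumiOpto replicate 1. Sqstm1, the autophagy receptor that binds KEAP1, was measured at 619 and 775 CPM in saline and at 531 and 528 CPM in the treated samples (-0.40 ± 0.18, and -0.22 without saline replicate 2).

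Other target genes of NRF2 did not share 1 direction. Of 24 such genes, 15 were higher and 9 lower with a median of 0.069, and 0 passed the adjusted threshold, while 4 were higher and 3 lower at an unadjusted p under 0.05, beside 11.0% and 12.2% of all genes tested. Slc7a11, the cystine importer that feeds glutathione synthesis, was counted 2024 and 3551 times in saline and 679 and 950 times in the treated samples, or 127, 239, 38.5 and 46.3 CPM. Both treated samples lay far below both saline samples, with a log2 fold change of -2.11 ± 0.32 and an adjusted p of 0.116 in the edgeR quasi-likelihood test, which was the smallest adjusted p in the table and was shared with other genes. Without saline replicate 2 the log2 fold change of Slc7a11 was -1.57 ± 0.25 with an adjusted p of 0.145 in that test. DESeq2 and the edgeR exact test both called Slc7a11 lower, with adjusted p of 5.16e-08 and 3.54e-06. Ugdh, which makes UDP-glucuronate for conjugation, was measured at 151 and 175 CPM in saline and at 87.9 and 98.6 CPM in the treated samples (-0.80 ± 0.17). Gsta3, a glutathione S-transferase, had the opposite order, with 6.56 and 7.35 CPM in saline and 22.3 and 21.8 CPM in the treated samples (1.66 ± 0.24). Hmox1, which degrades heme, was measured at 101 and 68.5 CPM in saline and at 85.0 and 88.0 CPM in the treated samples (0.028 ± 0.22). Txn1, the thioredoxin that TXNRD1 reduces, overlapped between the groups with a log2 fold change of 0.27 ± 0.20, and of 0.078 without ADC/cmLumiOpto replicate 1 and 0.44 without ADC/cmLumiOpto replicate 2. Aldh3a1, an aldehyde dehydrogenase chosen here after its values were seen, was counted 52 and 1552 times in saline and 131 and 192 times in the treated samples. Its ratio between the saline samples was 32.2, and 6 of the 15320 genes had one at or above it. The log2 fold change of Aldh3a1 was -2.68 ± 1.24, and 1.37 without saline replicate 2.

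Antioxidant enzymes outside the set were mostly higher in the treated samples. Of 25 such genes, 22 were higher and 3 lower with a median of 0.22, beside 52.0% of all genes tested that were higher. At an unadjusted p under 0.05, 7 were higher and 0 lower, beside 11.0% and 12.2% of all genes tested, and 0 passed the adjusted threshold. Gpx1, the main cytosolic glutathione peroxidase, was measured at 62.4 and 60.7 CPM in saline and at 99.9 and 102 CPM in the treated samples (0.71 ± 0.16). Gpx4, which reduces lipid peroxides, was measured at 257 and 288 CPM in saline and at 486 and 411 CPM in the treated samples (0.72 ± 0.17). With the gene-length trend removed these were lower, at 0.43 for Gpx1 and 0.46 for Gpx4. Sod3, the extracellular superoxide dismutase, was measured at 38.6 and 40.5 CPM in saline and at 84.8 and 61.3 CPM in the treated samples (0.89 ± 0.20). Sod1, its cytosolic relative, was measured at 244 and 268 CPM in saline and at 352 and 295 CPM in the treated samples (0.34 ± 0.17, and 0.21 without ADC/cmLumiOpto replicate 1). Catalase (Cat) lay between 68.5 and 77.4 CPM in all samples (0.016 ± 0.16). The marker sums of lung epithelium were also higher in the treated samples, and the part of the cell types in these levels was not tested.

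Of 14 genes for oxidases that produce superoxide or peroxide, 8 passed the filter on low counts. Of these, 7 were higher with a median of 0.85, beside 52.0% of all genes tested that were higher. Only 4 of the 8 had both treated samples above both saline samples, beside 28.1% of all genes tested. The remaining oxidases overlapped between the groups, among them Xdh, which was lower (-0.57 ± 0.32). At an unadjusted p under 0.05, 3 were higher and 0 lower, beside 11.0% and 12.2% of all genes tested, and 0 passed the adjusted threshold. Cyba, the membrane subunit p22phox of the phagocyte oxidase, was measured at 211 and 201 CPM in saline and at 388 and 421 CPM in the treated samples (0.97 ± 0.16). Its cytosolic partner Ncf4 was measured at 52.6 and 40.4 CPM in saline and at 75.5 and 135 CPM in the treated samples (1.18 ± 0.30). Ncf4 was highest in ADC/cmLumiOpto replicate 2, the sample with the most neutrophil marker RNA. Without that sample the log2 fold change of Ncf4 was 0.69 and the median of the oxidases was 0.36. The sums of the general leukocyte markers were also higher in the treated samples, and the part of the cell types in these levels was not tested. The genes named in these lists were in part picked for their small p in the same counts, so calls by other tests are no independent support. DESeq2 and the edgeR exact test both called Slc7a11, Ugdh and Gsk3b lower, beside 4.94% and 3.68% of all genes tested. Both called Gsta3, Gpx1, Gpx4, Sod3, Cyba and Ncf4 higher, beside 3.75% and 3.96%. Neither called Cul3, Rbx1, Bach1, Sqstm1, Hmox1, Txn1, Sod1, Cat or Aldh3a1. Nox1, Noxo1, Duox1, Duox2, Duoxa1 and Duoxa2 did not pass the filter.

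**Figure D5:**
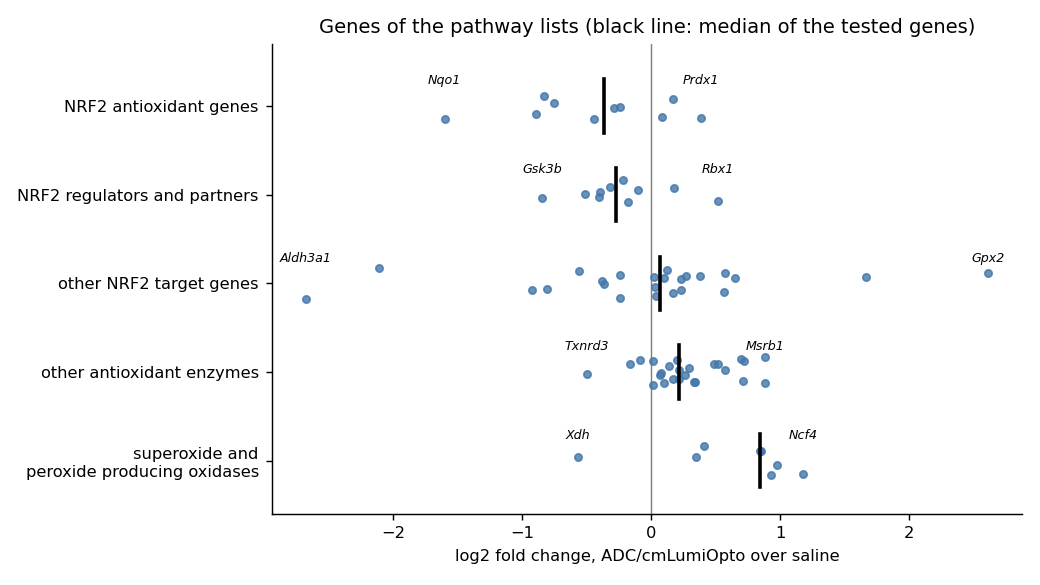
Log2 fold change, ADC/cmLumiOpto over saline, of the tested genes of the 10 NRF2 antioxidant genes and of 4 further lists of the pathway, with a black line at each median and the genes farthest out named. The medians were -0.37 for the members, -0.27 for regulators and partners, 0.069 for other NRF2 target genes, 0.22 for other antioxidant enzymes and 0.85 for oxidases.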

How the data were processed

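Lung samples of 2 saline and 2 ADC/cmLumiOpto mice were compared by RNA sequencing of messenger RNA, grouped by the titles. The values are counts, which the authors deposited as whole numbers of reads for each gene, not normalized, after alignment with HISAT2 to the mouse genome. The methods name GRCm38 and the submitters' processing notes mm39, and the counting program is not given in the sources used here.

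edgeR 4.0.16 (R 4.3.3) was used. Low genes were removed by filterByExpr (minimum count 10, minimum total 15), the rest were normalized by TMM, and glmQLFit and glmQLFTest were applied with Benjamini-Hochberg adjustment over 15320 genes and a threshold of 0.05. The prior count of log2 fold changes was 0.125, and their standard error (SE) is their size over the square root of F.

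The members, gene lists, marker lists and alternatives were chosen with earlier results of these data known. Genes named are the members, Cul3, Bach1, Sqstm1, Hmox1, Slc7a11, Txn1, Sod1, Cat and Gpx1, and the 3 genes with the smallest p in each of the 4 other lists, of which 1 is not reported here. Genes outside this rule are Aldh3a1 and the genes named for marker sums, for overlap, in the plot of the lists or as not passing the filter. Alternatives were DESeq2 1.42.0, the edgeR exact test, library size, upper-quartile normalization, a minimum of 10 counts in every sample, no filter beyond 1 count in total, protein-coding genes only, a replicate block, removal of a gene-length trend (lowess span 0.3), and each sample left out in turn, in which a lone sample is assumed to vary like the other group. The procedure was run on simulated counts, where the check was on the size of the fold changes returned. The simulation held no sample that stood apart as saline replicate 2 did.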

Additional observations from a re-analysis of the deposited data

How the results depend on the processing

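Of 130 fold changes of the members over 13 alternatives, 120 kept their direction and their side of the threshold, 8 passed it and 2 changed sign. The number of genes with an adjusted p under 0.05 was 0 with the edgeR quasi-likelihood test (3553 at an unadjusted p under 0.05), 1332 with DESeq2, 1170 with the exact test, 2259 without a filter and 0 to 218 with a sample left out. The number of members past the threshold was 2 with DESeq2, 4 without a filter and 0 to 2 with a sample left out, the 2 being Nqo1 and Srxn1 without saline replicate 1. With the replicate block, 607 genes and 0 members passed. The sample numbers were not taken as pairs, since there are only 2 and their deviations correlated at 0.0985.

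With a sample left out, the median of the members ranged from -0.64 to -0.093, of other targets from -0.054 to 0.23, of other antioxidant enzymes from 0.19 to 0.31 and of oxidases from 0.36 to 1.27. The median of other targets was -0.11 with the gene-length trend removed. That of other antioxidant enzymes was 0.27 by library size, 0.31 by upper quartile and 0.26 with 10 counts in every sample, and upper-quartile scaling put the median of all genes at 0.11. With a sample left out, the sign turned for Gclc (-0.54 to 0.11), Sod2 (-0.061 to 0.24), Hmox1 (-0.22 to 0.32), Cat (-0.083 to 0.11) and Aldh3a1 (-3.65 to 1.37), in each case without saline replicate 2 except for Cat, which turned without saline replicate 1, and for Hmox1, which was also at -0.0025 without ADC/cmLumiOpto replicate 2. Without the gene-length trend it turned for Hmox1 (-0.22), Txn1 (-0.050) and Cat (-0.12). The cause was not tested. Counting error of the members was small beside the spread between samples.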
